A study of Rattus norvegicus with 6 samples.

Results

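The genes of casein kinase 1 (CK1) and casein kinase 2 (CK2) were followed in rat 832/13 INS-1 cells, an insulin-secreting β-cell line derived from an insulinoma, after depletion of COUP-TFII. The nuclear receptor COUP-TFII, encoded by Nr2f2, was targeted by siRNA. The members were the 9 genes Csnk2a1, Csnk2a2, Csnk2b, Csnk1a1, Csnk1d, Csnk1e, Csnk1g1, Csnk1g2 and Csnk1g3, and every probe set annotated to 1 of them was taken. This gave 30 probe sets of the 31042 on the array that are not controls, 11 for the 3 CK2 subunits and 19 for the 6 CK1 isoforms. The short probes of a probe set were designed against 1 target sequence, though those of some probe sets can match more than 1 transcript. Their MAS5 signal is a linear intensity with no fixed unit. Each group had 3 arrays. COUP-TFII depleted cells were electroporated with COUP-TFII siRNA, at 68 pmol per electroporation by the study's methods, and control cells with scrambled siRNA, and both were cultured for 48 h. All arrays came from the same cell line, used between passages 7 and 25, which is 1 clone of tumor origin, and no untransfected cells were analysed here. The labels call the arrays biological replicates but do not say whether they came from separate cultures. The SDs below therefore measure the spread between these arrays. The standard errors come from the limma fit, which draws the variance of each probe set toward that of others with like signal. They can thus be larger or smaller than the spread of its own arrays would give.

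CK1 and CK2 are unrelated families of serine/threonine kinases that share a name because both phosphorylate casein in the test tube. CK2 is a constitutively active holoenzyme in which catalytic subunits, CK2α or CK2α′, sit on a dimer of the regulatory subunit CK2β, and it phosphorylates serines and threonines that lie before acidic residues. CK1 enzymes act as single chains, often on sites that another kinase has already phosphorylated. In the Wnt pathway CK1α makes the first phosphorylation of β-catenin that marks it for GSK3 and destruction, CK1γ acts on the co-receptor LRP6 at the membrane, and CK1δ, CK1ε and CK2 act on Dishevelled. CK1δ and CK1ε also phosphorylate the PER proteins of the circadian clock. In β-cells CK2 is known to phosphorylate the transcription factor PDX1.

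The siRNA target was checked first. Nr2f2 1389554_at, the brightest of its 3 probe sets, had signals of 47.0, 27.7 and 23.8 in COUP-TFII depleted cells and 182, 235 and 179 in control cells. All 3 depleted arrays lay below all 3 control arrays, and the log2 fold change was -2.65 with a standard error (SE) of 0.30. The limma adjusted p was 0.404, or 0.0185 when the replicate number was a block. Bacillus control probe sets, which detect transcripts that rat cells do not make, reached a signal of 20.7, and a probe set at or below it by mean in both groups is called dim. Of the β-cell markers 7 were measured and 0 were dim, with Ins1 between 13966 and 15306 in COUP-TFII depleted cells and between 9490 and 15843 in control cells. The 5 exocrine and duct markers and the 4 markers of mesenchyme, endothelium and leukocytes were dim. So were the 2 δ-cell markers and Irx2, 1 of the 2 α-cell markers measured. The PP-cell marker Ppy was not dim, at 20.1 to 28.7 in COUP-TFII depleted cells and 24.6 to 28.8 in control cells. The glucagon gene Gcg, a marker of α-cells, read 8056, 4788.5 and 817 in COUP-TFII depleted cells and 6313, 3397 and 394 in control cells for replicates 1, 2 and 3, and so differed more between replicate numbers than between groups. In such bulk RNA, fewer cells with a transcript and less of it per cell cannot be told apart.

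The 9 genes were chosen after Csnk2a2 had been seen among the named probe sets with the lowest unadjusted p in this same comparison. What follows is therefore a description of the members. The counts by p-value below are part of that description, and no conclusion is drawn from them. Csnk2a2, which encodes the catalytic subunit CK2α′, was lower in COUP-TFII depleted cells by all 5 of its probe sets, with log2 fold changes between -0.64 and -0.22. Those of Csnk2a1, for the other catalytic subunit CK2α, ran from -0.08 to 0.25 over 5 probe sets, and that of Csnk2b, for the regulatory subunit, was 0.02. The 19 probe sets of the CK1 isoforms ran from -0.55 to 0.42 with a median of -0.04. Over all 30 probe sets the median was -0.05, against -0.003 for all probe sets on the array, and 20 were lower and 10 higher by mean. Without Csnk2a2 the median of the other 25 was -0.02, with 15 lower and 10 higher.

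In the limma comparison 0 of the 30 probe sets passed an adjusted p of 0.05, as did 0% of all probe sets, and 0 passed with the replicate number as a block, where 0.0161% of all probe sets did. At an unadjusted p up to 0.05 limma gave 3 lower and 0 higher, against a background of 1.34% of all probe sets lower and 0.973% higher. The 3 were Csnk2a2 probe sets. With the replicate block 4 were lower and 1 higher, against 3.51% and 2.72%. The fourth lower one was Csnk1a1 1369312_a_at and the higher one Csnk1e 1386693_at. The methods' t-test gave 4 lower, against 1.62% of all, namely the same 3 Csnk2a2 probe sets and Csnk2a1 1376616_at, and 0 higher, against 1.52%. Groups that did not overlap were found for 4 members, all lower in COUP-TFII depleted cells, against 3.49% of all probe sets that were lower in this way, and 0 were higher, against 3.25%. Set against the control array of its own replicate number, the signal was lower in 3 of 3 pairs for 9 members and higher in 3 of 3 for 3, where 14.0% and 13.4% of all probe sets were. Most of these lower counts came from Csnk2a2, the gene that led to the choice of members. Without Csnk2a2, 1 of the other 25 was lower with no overlap, and 4 were lower and 3 higher in 3 of 3 pairs. With 3 arrays in each group the smallest two-sided p of an exact permutation test is 0.1.

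**Figure D1:**
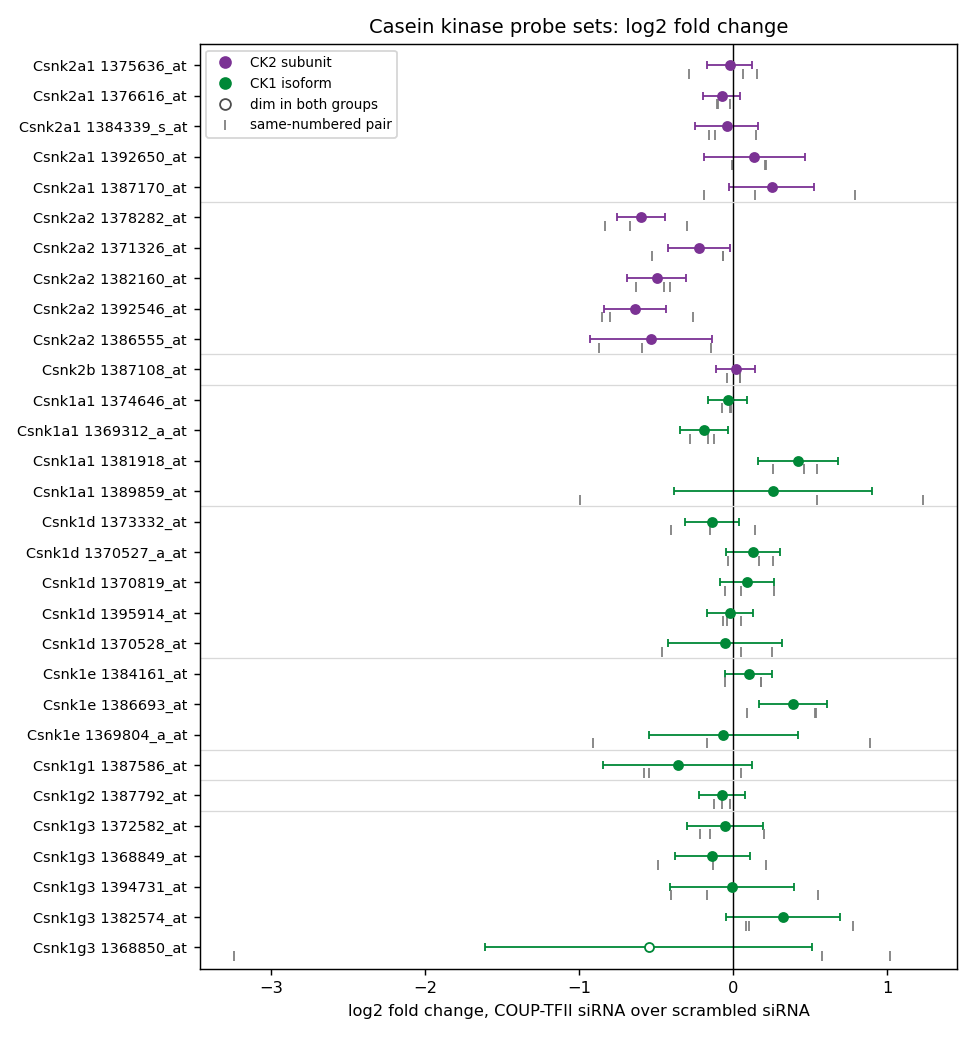
COUP-TFII siRNA over scrambled siRNA, as log2 fold change, for the 30 casein kinase probe sets, grouped by gene and ordered by signal within a gene. Points are the limma estimates with bars of 1 standard error, small ticks are the 3 same-numbered pairs, and all 5 Csnk2a2 points lie between -0.64 and -0.22.

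Csnk2a2 was read by 5 probe sets, none of them dim. The brightest, 1378282_at, had signals of 279, 313 and 313 in COUP-TFII depleted cells and 498, 498 and 385 in control cells. The depleted arrays lay close together and below every control array, of which replicate 3 was the lowest. Its mean was 302 ± 19.8 after COUP-TFII siRNA and 460.3 ± 64.9 after scrambled siRNA (SD, n = 3 each), a log2 fold change of -0.60 (SE 0.15). Csnk2a2 1392546_at read 88.9, 86.6 and 95.8 in COUP-TFII depleted cells and 155, 156 and 115 in control cells, a log2 fold change of -0.64 (SE 0.20). The same control array was the lowest again, and the Pearson r with 1378282_at was 0.98 over 6 arrays that share their groups. For the other Csnk2a2 probe sets that r was 0.84 (1382160_at), 0.62 (1386555_at) and 0.54 (1371326_at). Csnk2a2 1382160_at read 93.8, 108 and 85.3 in COUP-TFII depleted cells and 125, 147 and 132 in control cells, a log2 fold change of -0.50 (SE 0.19). Here too the groups did not overlap, and the highest array of each group was replicate 2.

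The groups overlapped for the remaining Csnk2a2 probe sets. Csnk2a2 1371326_at read 245, 405 and 368 in COUP-TFII depleted cells and 354, 425 and 386 in control cells, a log2 fold change of -0.22 (SE 0.20). Most of that difference lay in replicate 1 of the COUP-TFII depleted cells, and without this array the log2 fold change was -0.004. Csnk2a2 1386555_at read 47.8, 47.4 and 27.0 in COUP-TFII depleted cells and 87.6, 52.2 and 40.7 in control cells, a log2 fold change of -0.54 (SE 0.40). The spread within its groups was as large as the difference between them. When arrays with the same replicate number were set against each other, all 5 probe sets read lower after COUP-TFII siRNA in 3 of 3 pairs, a pattern that 14.0% of all probe sets showed. The 5 probe sets are annotated to 1 gene and were read on the same 6 arrays, so they are not independent of each other. Whether they read the same transcripts was not tested. With each array left out in turn the log2 fold change ran from -0.72 to -0.54 for 1378282_at, from -0.78 to -0.56 for 1392546_at, from -0.59 to -0.42 for 1382160_at and from -0.78 to -0.23 for 1386555_at.

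**Figure D2:**
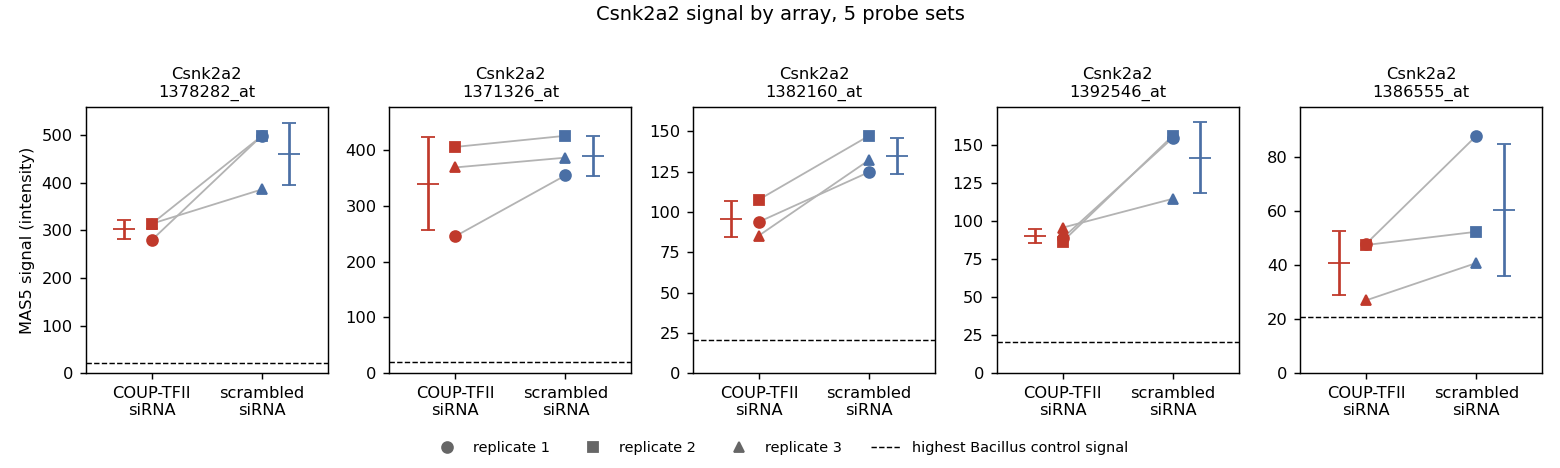
Signal per array (MAS5 intensity, linear axes from 0) of the 5 Csnk2a2 probe sets, with COUP-TFII siRNA left and scrambled siRNA right in each panel. Points are arrays, grey lines join arrays of 1 replicate number, bars show mean ± SD (n = 3) and a dashed line marks the Bacillus signal of 20.7, and all 15 grey lines lie lower at the COUP-TFII siRNA end.

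For the other subunits of the CK2 holoenzyme the log2 fold changes were nearer to 0 than for Csnk2a2, with the exception of Csnk2a1 1387170_at at 0.25. The 3 Csnk2a1 probe sets with the highest signals had negative values. Csnk2a1 1375636_at read 799, 999 and 901 in COUP-TFII depleted cells and 977, 954 and 810.3 in control cells, a log2 fold change of -0.02 (SE 0.14). Csnk2a1 1376616_at read 701, 713 and 685 in COUP-TFII depleted cells and 755, 724 and 732 in control cells, a log2 fold change of -0.08 (SE 0.12). The groups of 1376616_at did not overlap, and the difference between its means, 699.6 ± 14.2 and 737 ± 15.9 (SD, n = 3 each) for COUP-TFII depleted and control cells, was small. Csnk2a1 1384339_s_at, whose suffix marks probes that can match more than 1 transcript, read 467, 761 and 522 in COUP-TFII depleted cells and 521, 686 and 567 in control cells, a log2 fold change of -0.04 (SE 0.20). It was highest in replicate 2 of both groups.

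The less bright Csnk2a1 probe sets went the other way by mean. Csnk2a1 1392650_at read 138, 87.2 and 168 in COUP-TFII depleted cells and 138, 75.5 and 145 in control cells, a log2 fold change of 0.14 (SE 0.33). It was lowest in replicate 2 of both groups, opposite to 1384339_s_at. Csnk2a1 1387170_at, built on the RefSeq mRNA, read 97.4, 77.3 and 117 in COUP-TFII depleted cells and 111, 70.0 and 67.7 in control cells, a log2 fold change of 0.25 (SE 0.28) with overlapping groups. Csnk2b 1387108_at, the only probe set for the regulatory subunit CK2β, read 2100.35, 2127 and 2205 in COUP-TFII depleted cells and 2162, 2067 and 2135 in control cells. The log2 fold change of 0.02 (SE 0.12) turned to -0.02 after quantile normalization, so that no direction is given. All 6 Csnk2b signals lay between 2067 and 2205.

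**Figure D3:**
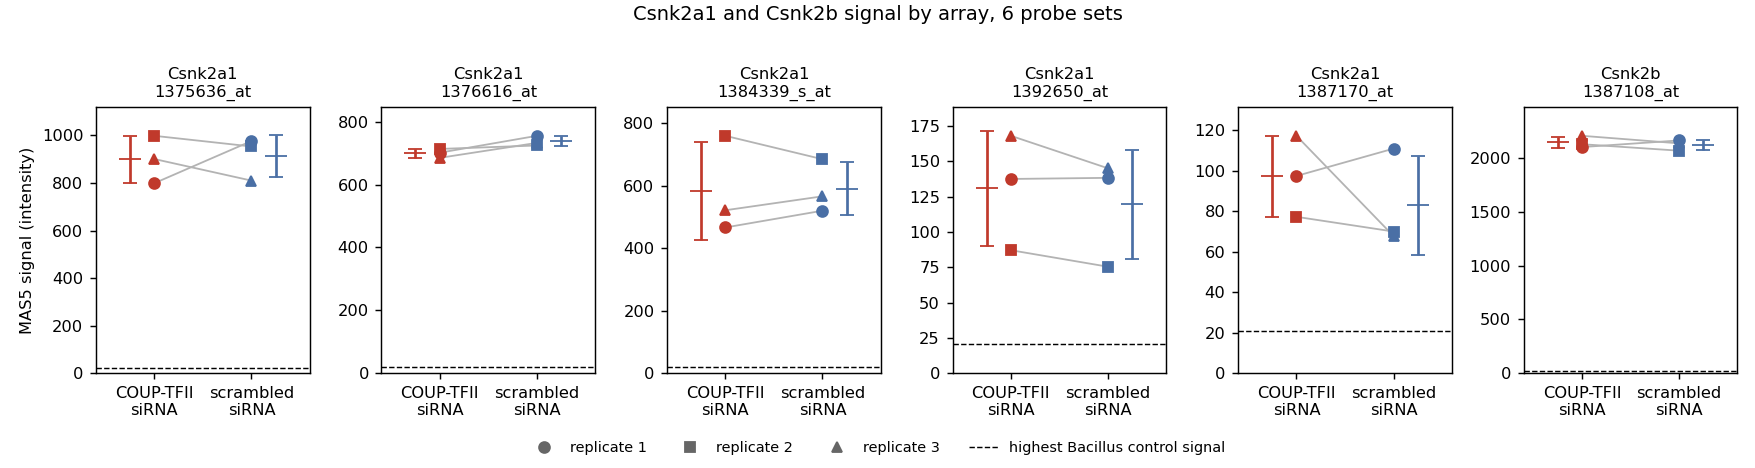
Signal per array (MAS5 intensity, linear axes from 0) of the 5 Csnk2a1 probe sets and the Csnk2b probe set, with COUP-TFII siRNA left and scrambled siRNA right in each panel. Points are arrays, grey lines join arrays of 1 replicate number, bars show mean ± SD (n = 3) and a dashed line marks the Bacillus signal of 20.7. The groups overlap in all panels but that of 1376616_at, where the means are 699.6 and 737.

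Csnk1a1, for CK1α, the kinase that primes β-catenin, was read by 4 probe sets that did not share a direction. The study also assigns to Csnk1a1 a probe set that has no gene in the annotation used here, and it was not used here. The brightest, 1374646_at, read 1544, 1635 and 1461 in COUP-TFII depleted cells and 1558, 1661 and 1533 in control cells, a log2 fold change of -0.04 (SE 0.13). Csnk1a1 1369312_a_at read 487, 436 and 565 in COUP-TFII depleted cells and 592, 489 and 617 in control cells, a log2 fold change of -0.19 (SE 0.16). Its groups overlapped, while each depleted array read below the control array of its own number. Csnk1a1 1381918_at read 77.3, 62.0 and 74.8 in COUP-TFII depleted cells and 53.0, 45.1 and 62.6 in control cells, a log2 fold change of 0.42 (SE 0.26), the highest of the 30. The groups of 1381918_at overlapped only in that replicate 2 of the depleted cells lay just under replicate 3 of the control cells. Csnk1a1 1389859_at, near the Bacillus signal, ran from 17.8 to 34.2 in COUP-TFII depleted cells and from 8.02 to 35.5 in control cells.

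Csnk1d and Csnk1e encode CK1δ and CK1ε, the closely related kinases of the clock proteins. The 5 Csnk1d probe sets had log2 fold changes between -0.14 and 0.13, with 3 lower and 2 higher, and the groups of all 5 overlapped. The brightest, Csnk1d 1373332_at, read 540.2, 775 and 749 in COUP-TFII depleted cells and 715, 862 and 679.7 in control cells. Its log2 fold change of -0.14 (SE 0.18) was 0.03 without COUP-TFII siRNA replicate 1, the lowest array. Csnk1d 1370527_a_at read 307, 225 and 309 in COUP-TFII depleted cells and 273, 229.8 and 259 in control cells, a log2 fold change of 0.13 (SE 0.18). The other 3 had log2 fold changes between -0.05 and 0.09. Csnk1e 1386693_at read 136, 93.3 and 138 in COUP-TFII depleted cells and 93.3, 87.5 and 95.7 in control cells, a log2 fold change of 0.39 (SE 0.22). The higher mean came from replicates 1 and 3, while replicate 2 of the depleted cells lay among the control arrays. Csnk1e 1384161_at read 178, 206 and 206 in COUP-TFII depleted cells and 184, 182 and 182 in control cells, a log2 fold change of 0.10 (SE 0.15). Csnk1e 1369804_a_at was spread in COUP-TFII depleted cells, at 32.5, 17.8 and 62.4, and close in control cells, at 36.6, 33.5 and 33.7.

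The CK1γ isoforms, which are held at the membrane by a lipid anchor, are encoded by Csnk1g1, Csnk1g2 and Csnk1g3. Csnk1g1 1387586_at read 20.8, 13.2 and 28.3 in COUP-TFII depleted cells and 31.2, 19.3 and 27.4 in control cells, a log2 fold change of -0.36 (SE 0.48) at signals near the Bacillus controls. Csnk1g2 1387792_at read 183, 201 and 179 in COUP-TFII depleted cells and 199.6, 204 and 188 in control cells, a log2 fold change of -0.07 (SE 0.15). The signal of Csnk1g2 was slightly lower in 3 of 3 same-numbered pairs, with overlapping groups. Csnk1g3 was read by 5 probe sets, whose log2 fold changes ran from -0.55 to 0.32 and whose groups all overlapped. The brightest, Csnk1g3 1372582_at, read 769.9, 404 and 534 in COUP-TFII depleted cells and 669.8, 449 and 619.9 in control cells, a log2 fold change of -0.05 (SE 0.25). The 3 others that were not dim had log2 fold changes of -0.14, -0.01 and 0.32, with the signal of 1382574_at higher in 3 of 3 same-numbered pairs. Without scrambled siRNA replicate 2 the value of 0.32 for 1382574_at was -0.02. The value of -0.55 belonged to 1368850_at, the only dim probe set of the 30, which read 16.0, 1.16 and 17.6 in COUP-TFII depleted cells and 7.90, 11.0 and 11.8 in control cells. Without COUP-TFII siRNA replicate 2 the log2 fold change of 1368850_at was 0.74.

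The members were also compared by how their signals varied with the replicate number. The variation of each probe set over the 6 arrays was divided into a share between the groups, a share between replicate numbers and a remainder. The replicate share was the larger for 23 of the 30 members, or 76.7%, near the 81.7% of all probe sets, and since there were 3 replicate numbers but only 2 groups it would be the larger more often than not with no effect of either. Taken as the median of each gene, it was highest for Csnk1d, at 75.9%, followed by Csnk1g1 at 69.7% and Csnk1g3 at 67.6%, and for a single probe set it was highest for Csnk2a1 1392650_at, at 95.8%. For Csnk1g3, 4 of the 5 probe sets, among them 1394731_at with 143, 58.9 and 149 in COUP-TFII depleted cells and 161, 78.0 and 101 in control cells, were lowest in replicate 2 of both groups. The replicate 2 arrays also had the lowest median signals over all probe sets, 31.2 in COUP-TFII depleted cells and 29.9 in control cells. Those of the other arrays lay between 35.9 and 39.4. The mean signal of replicate 2 was the lowest in control cells, at 224.5, but the highest in COUP-TFII depleted cells, at 242. The part of this difference between arrays in the Csnk1g3 pattern was not tested. Averaged over both groups, the replicate 2 signal of Csnk1g3 lay below that of replicates 1 and 3 by all 5 probe sets, with differences between -1.84 and -0.45 on the log2 scale. In contrast, the share between the groups was 83.2% for Csnk2a2 1378282_at, 81.4% for 1392546_at and 81.2% for 1382160_at, against a median of 12.03% over the 30 members and 8.58% over all probe sets. That share comes from the comparison by which Csnk2a2 was noticed and is descriptive only. RNA quality was read from the ratio of 3′ to 5′ control probe sets, which for β-actin ran from 2.64 to 3.39 in COUP-TFII depleted cells and from 2.88 to 3.003 in control cells. For GAPDH it ran from 1.04 to 1.07 in COUP-TFII depleted cells and from 0.97 to 1.09 in control cells. The part of RNA quality in the differences between probe sets of 1 gene was not tested.

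**Figure D4:**
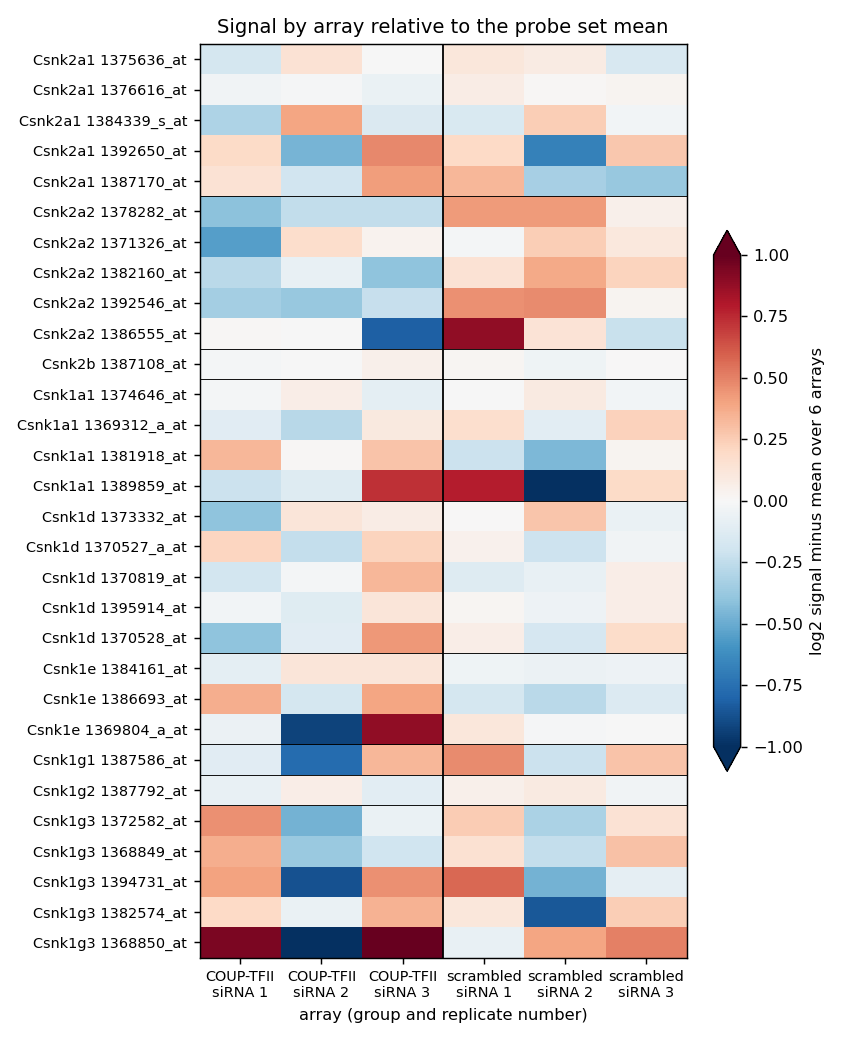
log2 signal of the 30 casein kinase probe sets on each of the 6 arrays, relative to the mean of that probe set, with the COUP-TFII siRNA arrays left and the scrambled siRNA arrays right of the vertical line. The Csnk2a2 rows are mostly below the mean on the left and above it on the right, while 4 of the 5 Csnk1g3 rows, all but the dim 1368850_at, are lowest in replicate 2 of both groups (colors end at 1 in either direction).

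Probe sets of 1 gene were also compared with each other over the 6 arrays. The median Pearson r between probe sets was 0.58 for Csnk2a2 (10 pairs), 0.60 for Csnk1g3 (10 pairs), 0.35 for Csnk1d (10 pairs), 0.16 for Csnk1e (3 pairs), -0.06 for Csnk2a1 (10 pairs) and -0.31 for Csnk1a1 (6 pairs). The coefficient was negative for 5 of the 10 pairs of Csnk2a1 and 3 of the 6 pairs of Csnk1a1, and for 2 of the 10 pairs of Csnk1d, 1 of the 3 pairs of Csnk1e, 1 of the 10 pairs of Csnk2a2 and 0 of the 10 pairs of Csnk1g3. These values describe 6 arrays that share groups and replicate numbers. Among 12186 named probe sets of other genes at or above the median signal, those most like Csnk2a2 1378282_at by Pearson r over the 6 arrays were Irf2bp1, which encodes a corepressor of IRF2, Tmc4, Smtn, Ppp6r1, a regulatory subunit of protein phosphatase 6, and Dcaf7, a scaffold of DYRK kinases, with r between 0.969 and 0.981. Their log2 fold changes were -0.34, -0.24, -0.58, -0.40 and -0.38 in that order. Since 83.2% of the variation of 1378282_at lay between the groups, a high r with it selects probe sets that are lower after COUP-TFII siRNA. The negative values are therefore no separate result. The closest casein kinase probe set of another gene was Csnk2a1 1376616_at, with r = 0.79 and rank 234, and Csnk1a1 1381918_at, with r = -0.91, was the most opposite.

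Genes that work with the casein kinases were listed by role, and the brightest probe set of each was taken. Of 74 listed genes 56 were measured by a probe set with 1 symbol. In the limma comparison 0 of the 56 passed an adjusted p of 0.05, with or without the replicate block, and at an unadjusted p up to 0.05 limma gave 0 lower and 0 higher, against a background of 1.34% lower and 0.973% higher. The methods' t-test also gave 0 and 0, against 1.62% and 1.52%. With the replicate block 3 were lower at that unadjusted p and 0 higher, against 3.51% and 2.72%. These were Clock, Apc and Apc2. Their groups all overlapped.

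Among 19 substrates and partners in the Wnt pathway, 8 were lower and 11 higher by mean, with a median log2 fold change of 0.13 against -0.003 for all probe sets. Of the 5 dim partner genes 4 were in this list, and without dim probe sets the median was -0.06. With the dim probe sets kept and 1 array left out the median ran from -0.0057, without scrambled siRNA replicate 1, to 0.27, without scrambled siRNA replicate 3, so that no direction is given for the list. Ctnnb1, for β-catenin, read 4272, 4520.4 and 5310.5 in COUP-TFII depleted cells and 4474, 2829.7 and 4772 in control cells, a log2 fold change of 0.25 (SE 0.22). Without replicate 2 of the control cells, its lowest array, it was 0.02. Apc, a scaffold of the complex that destroys β-catenin, read 281, 213 and 279 in COUP-TFII depleted cells and 352, 226 and 342 in control cells, a log2 fold change of -0.23 (SE 0.21). It was lower in 3 of 3 same-numbered pairs, as was its relative Apc2 with a log2 fold change of -0.72 (SE 0.48). Without COUP-TFII siRNA replicate 1 the value of Apc2 was -0.18. As the median over all probe sets of the gene, the log2 fold change was 0.08 for Ctnnb1 (4 probe sets), -0.10 for Apc (3 probe sets) and -0.18 for Apc2 (2 probe sets). Dvl3, a Dishevelled gene singled out after its values were seen, had the highest value of the list, 1.34 (SE 0.89), at signals of 27.8, 40.6 and 22.04 in COUP-TFII depleted cells and 2.58, 20.2 and 29.3 in control cells. That value was 0.26 without scrambled siRNA replicate 1, the control array at 2.58, and 0.54 on the log2(signal + 16) scale. Lrp6, the co-receptor on which CK1γ acts, had a log2 fold change of -0.25 (SE 0.25).

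Of 12 clock genes 7 were lower and 5 higher by mean, with a median of -0.01. That median ran from -0.19, with COUP-TFII siRNA replicate 3 left out, to 0.03, with replicate 1 of that group left out, and no direction is given. Clock, a transcription factor of the core loop, read 341, 148 and 293 in COUP-TFII depleted cells and 465, 208 and 363 in control cells, a log2 fold change of -0.42 (SE 0.37, or 0.09 with the replicate block). Replicate 2 was the lowest array in both groups. Its partner Bmal1 had a log2 fold change of 0.22 (SE 0.28), and the PER gene Per1 -0.22 (SE 0.57). Of 17 CK2 substrates and partners 6 were lower and 11 higher, between -0.23 for Mdc1 and 0.16 for Calm2, which encodes calmodulin. Pdx1 read 391, 414 and 429 in COUP-TFII depleted cells and 505, 472 and 408 in control cells, a log2 fold change of -0.16 (SE 0.14). Of 6 scaffolds and relatives of CK1 4 were lower and 2 higher, with Vrk3 at -0.21 (SE 0.18). Fam20c, the secretory-pathway kinase that phosphorylates casein in milk, had a log2 fold change of -0.06 (SE 0.19), and its relative Fam20b 0.06 (SE 0.16).

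**Figure D5:**
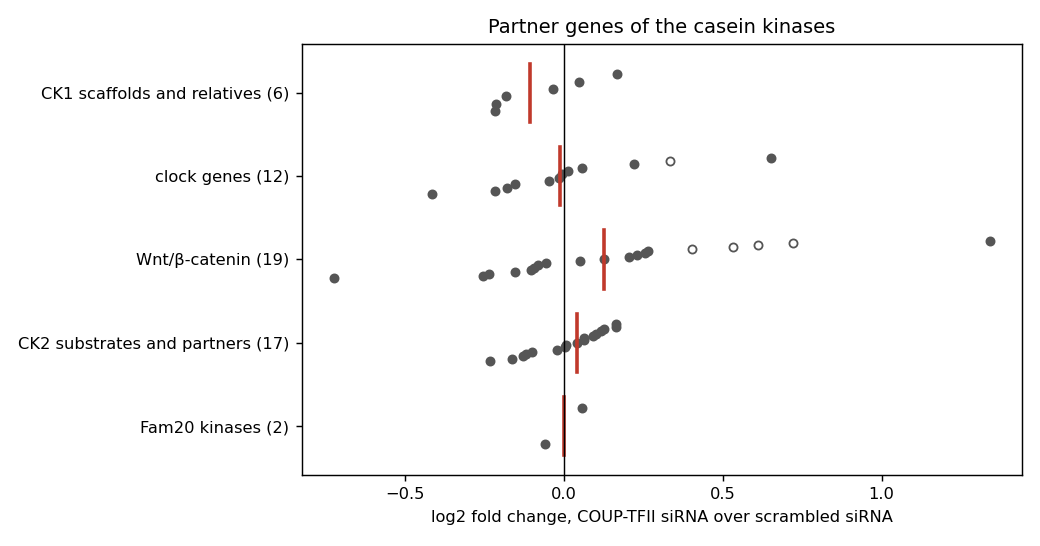
COUP-TFII siRNA over scrambled siRNA, as log2 fold change, for the 56 measured partner genes in 5 lists, 1 probe set per gene, with gene numbers in brackets, the median as a red bar and vertical scatter for display only. Open points are dim in both groups, and the medians lie between -0.11 for CK1 scaffolds and relatives and 0.13 for the Wnt pathway.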

How the data were processed

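The authors computed 1 signal per probe set and array with MAS5 (version not given in the sources used here) and deposited it as a linear intensity, after subtracting background and normalizing to reference probes whose names are not given. No detection calls were used here. Values below 1 were raised to 1 before the log2 step, and no further normalization was applied. The 57 control probe sets were left out, and 31042 entered an unpaired, two-sided limma fit (lmFit and eBayes with trend, limma 3.58.1, R 4.3.3), whose p-values were adjusted by Benjamini-Hochberg over every probe set. Symbols came from the platform annotation, updated by gene ID through a RefSeq table, and 20826 probe sets had 1 symbol, 436 several and 9780 none. Those with several were given no name. Same-numbered arrays varied together over all probe sets (correlation of deviations from the group means 0.111, 0.231 and 0.163, against -0.146 to -0.0104 for different numbers), so the numbers were taken to pair the arrays. The main fit is unpaired, and the SEs given without mention of the replicate block leave this pairing out. The members and gene lists were chosen with earlier results of these data known. Named are all member probe sets, up to 4 genes per list by lowest p at or above the median signal, the 5 probe sets most like the brightest of Csnk2a2, and Nr2f2. Of the members 27 of 30 lay at or above the median signal, and none was filtered out. The fits were run on simulated data with added effects larger than those of the casein kinases, and only their mean estimates were checked. How many such effects would pass an adjusted p is not given here. Alternatives changed the scaling (quantile normalization or centring on the median), the offset (log2 of signal + 16), the test (that of the methods, a t-test, or limma fitted with no trend), the filter on dim probe sets or the arrays (1 omitted at a time), added the replicate number as a block, or, for the lists, took each gene's median over its probe sets. After the data were seen, the settings without both replicate 2 arrays and with the block after quantile normalization were added. The number of arrays limits the precision. No sequence of these genes is given here.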

Additional observations from a re-analysis of the deposited data

How the results depend on the processing

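Over the 16 alternative settings no casein kinase and no partner gene passed an adjusted p of 0.05. The count of lower members at an unadjusted p up to 0.05, 3, ran from 2 to 4 (2 to 3 with 1 array left out). The count of higher members, 0, was 1 with the replicate block, 1 with the block after quantile normalization and 1 without both replicate 2 arrays. With 1 array left out it ran from 0 to 1, the 1 being without COUP-TFII siRNA replicate 2. In each case the probe set was Csnk1e 1386693_at. The count of lower partner genes, 0, was 3 with the replicate block and 2 with the block after quantile normalization. It ran from 0 to 1 with 1 array left out, Vrk3 without COUP-TFII siRNA replicate 3 and Apc without scrambled siRNA replicate 2. Nr2f2 1389554_at passed with the replicate block (log2 fold change -2.65, adjusted p = 0.0185) and with the block after quantile normalization (-2.62). Over all probe sets the block gave 5 calls at an adjusted p of 0.05, against 0 without it, and 0 of the 5 were casein kinase or partner probe sets. The sign of the log2 fold change differed from the main one under at least 1 setting for 16 of the 30 members, 0 of them Csnk2a2 probe sets, and under quantile normalization, median centring or log2(signal + 16) for 3, namely Csnk2b 1387108_at, Csnk1g3 1394731_at and Csnk1g3 1368850_at. The causes were not tested. Since Csnk2a2 was chosen on this comparison, its unchanged sign is no independent support.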
